A study of Homo sapiens with 8 samples.

Results

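The first 7 Mb of the short arm of chromosome 7 (hg19) carried the densest run of ORCA peaks of the series, which mapped ORCA in U2OS cells through G1. The members are all deposited peaks of the 4 lists whose midpoint lies between 0 and 7000000 on chromosome 7. There were 3734 of them among the 98024 peaks of the series, and 4035 more lay on the rest of chromosome 7. They comprised 1213 of 10740 early, 1122 of 10382 mid and 179 of 1347 late ORCA peaks, and 1220 of 75555 MeDIP peaks. The stretch was chosen by its count of ORCA peaks per Mb in these same lists, so density is given below as a description and supports nothing.

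ChIP-seq of ORCA was done on 3 samples of U2OS, a human osteosarcoma cell line, synchronized in early, mid and late G1. MeDIP-seq, which pulls down methylated DNA so that a peak marks a place rich in methylated CpG, was done on U2OS with no stage given. Each group is 1 sample, so no difference between stages can be set against a spread between replicates, and the 4 inputs were not analysed here. No source used here gives read depth or calling settings. The late list's file name carries a caller label that differs in its number from the label on the early and mid lists. Intervals in brackets are 95% Wilson intervals for shares and Newcombe intervals for differences. Both reflect counting error alone, and adjacent peaks depend on each other.

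ORCA (gene LRWD1) binds the origin recognition complex, which marks places where DNA replication may start and helps to load the replicative helicase during G1. It is known for its enrichment at heterochromatin. DNA methylation at CpG sites is common in the bodies of genes and in silenced chromatin. The end of the short arm of chromosome 7 carries, in RefSeq's order from the chromosome end, PDGFA (a growth factor), MAD1L1 (a spindle checkpoint protein), LFNG (a glycosyltransferase acting on Notch receptors), SDK1 (a cell adhesion protein), FOXK1 (a forkhead transcription factor) and ACTB (beta-actin). That annotation is for another genome build (GRCh38), so the peaks below are given by position and were not assigned to these genes.

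The domain held 173 early, 160.3 mid and 25.6 late ORCA peaks per Mb. On the rest of chromosome 7 there were 2.57 early, 2.64 mid and 0.408 late peaks per Mb. The early ratio of domain to rest was 67.5 (60.3 to 75.7), the mid ratio 60.6 (54.1 to 67.9) and the late ratio 62.7 (47.0 to 83.6), so the 3 intervals overlapped. MeDIP peaks were also denser in the domain, but by a much smaller ratio of 8.33 (7.80 to 8.90), with 174 per Mb against 20.9 per Mb on the rest of the chromosome. The domain thus held 75.7% of the early, 73.6% of the mid and 74.3% of the late ORCA peaks of chromosome 7, and 27.7% of its MeDIP peaks. Early peaks covered 23.5% of its bases, mid peaks 22.97%, late peaks 4.06% and MeDIP peaks 26.1%. On the rest of chromosome 7 these shares of bases were 0.151%, 0.178%, 0.0415% and 2.11%. Counted in covered bases, the ratio of domain to rest was 156 for early and 129 for mid peaks.

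Among windows of 7 Mb starting at whole Mb on chromosomes 1 to 22 and X, the domain held the most peaks of each ORCA list. The next window that did not overlap it was chromosome 8 from 140 to 147 Mb, with 896 early, 909 mid and 151 late peaks. Past these ends, the fullest window was chromosome 22 from 19 to 26 Mb, with 417 early, 404 mid and 39 late peaks. For MeDIP peaks the domain took place 11, behind 10 windows that overlap one another on 4 chromosomes.

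At a resolution of 50 kb the domain was made of 3 dense stretches with thin gaps between them. A bin was called dense when it held 5 or more ORCA peaks, summed over the 3 lists. Of the 140 bins of the domain 120 were dense, against 26 of 3042 bins on the rest of chromosome 7 and 1.54% of all bins on chromosomes 1 to 22 and X. A bin held a median of 15 ORCA peaks in the domain and 0 on the rest of the chromosome, where the fullest bin held 25. In the domain the fullest bin held 48. Only 2 of its bins held no ORCA peak, while 2581 of 3042 bins on the rest of chromosome 7 (84.8%) held none.

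The first dense stretch, from 50 to 3150 kb, was interrupted only by the bin from 100 to 150 kb, which held 3 ORCA peaks. It carried 721 early, 672 mid and 110 late ORCA peaks and 787 MeDIP peaks. The second stretch was short, from 3900 to 4500 kb, and carried 69 early, 79 mid and 9 late peaks and 95 MeDIP peaks. The third, from 4650 to 6900 kb, carried 396 early, 348 mid and 58 late peaks and 305 MeDIP peaks, and its only thin bin was that from 5900 to 5950 kb, with 1 ORCA peak. These stretches, with single thin bins bridged and at least 5 bins each, were defined after the bins had been seen.

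Between the first and second stretch lay 750 kb with few peaks of any kind, although some of its bins were dense by the rule above. The dense bins from 3250 to 3350 kb held 7 early, 6 mid and 1 late ORCA peak and 7 MeDIP peaks. That from 3600 to 3650 kb held 4 early, 1 mid and 0 late peaks and 1 MeDIP peak. Within these 750 kb, the only empty run of 2 bins in the domain, from 3400 to 3500 kb, held 0 peaks of each ORCA list and 1 MeDIP peak. The 5 bins from 3350 to 3600 kb together held 1 early, 3 mid and 1 late ORCA peak and 3 MeDIP peaks. The 5 bins from 3650 to 3900 kb held 6 early, 5 mid and 0 late peaks and 6 MeDIP peaks. A shorter thin run from 4500 to 4650 kb separated the second from the third stretch, with 2 early, 5 mid and 0 late peaks and 3 MeDIP peaks. The gaps were drawn from the summed ORCA counts, so low counts of the 3 ORCA lists there follow from the definition. The MeDIP list, which was not used to draw them, was thin there too.

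**Figure D1:**
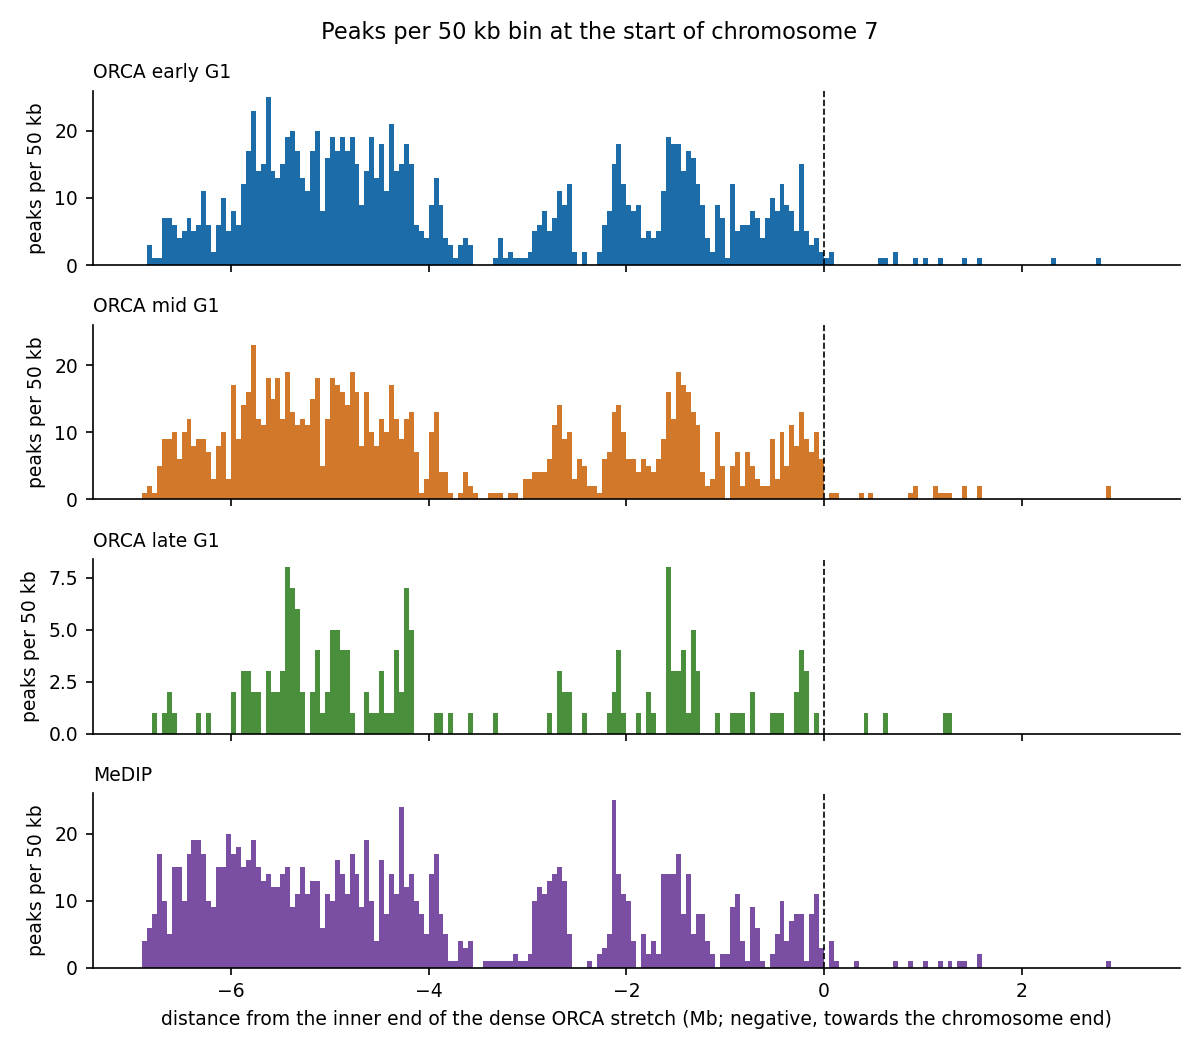
Peaks per 50 kb bin in early, mid and late ORCA lists and the MeDIP list, plotted by distance in Mb from the inner end of the dense ORCA stretch (dashed line), with the chromosome end at the left. The gap between the first and second dense stretch, drawn from the summed ORCA counts, is thin in MeDIP peaks too. The outermost Mb holds 266 MeDIP peaks and 263 ORCA peaks. The next Mb inward holds 260 and 677, the Mb from 3 to 4 Mb 48 and 81, and the innermost Mb of the domain 103 and 264. The first 500 kb past the line hold 3 early, 4 mid and 1 late ORCA peak.

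The inner edge of the domain was a step in mid peaks and more gradual in early and late peaks. In successive bins of 100 kb from 6.6 to 7 Mb there were 20, 8, 6 and 3 early peaks. Mid peaks numbered 21, 16, 16 and 1 there, and late peaks 6, 3, 1 and 0. Because the edge was set by the summed ORCA counts, some drop past it was built in. The last dense bin, allowing gaps of up to 250 kb, ended at 6900 kb. The 500 kb before this edge held 71 early, 82 mid and 12 late ORCA peaks and 65 MeDIP peaks. The 500 kb after it held 3, 4 and 1 ORCA peaks in the same order of stages and 6 MeDIP peaks. Over the next 2 Mb there were 12 early, 16 mid and 4 late peaks and 15 MeDIP peaks. The edge depends on the gap between the first and second stretch: with 10 or more peaks asked of a bin, or with bins of 100 kb, the same rule stopped there, at 3.05 or 3.3 Mb. The limit of 7 Mb itself fell in thin ground. The last early peak inside it lay at 6979313 to 6980155 and the first outside at 7469596 to 7470188. For mid peaks these were 6965546 to 6966604 and 7014353 to 7015378, and for late peaks 6801098 to 6802510 and 7340262 to 7341497. The nearest MeDIP peaks lay at 6974577 to 6976414 and 7018897 to 7019498.

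The outer end of the domain was rich in MeDIP peaks but poorer in ORCA peaks than the next 2 Mb. From 0 to 1000 kb there were 10.6 early, 14.8 mid and 0.9 late peaks per 100 kb, and 26.6 MeDIP peaks. From 1000 to 3150 kb there were 28.6 early, 24.4 mid and 4.70 late peaks per 100 kb, with 24.4 MeDIP peaks. The ORCA peaks of the first Mb were also narrow, with a median width of 608.5 bp for early and 661.5 bp for mid peaks, against 1200 and 1331 bp in the following stretch. A MeDIP peak overlapped an ORCA peak of some stage in 45.5% (39.6 to 51.5) of cases in the first Mb and in 87.2% (84.1 to 89.8) from 1000 to 3150 kb. This limit of 1 Mb was set after the bins had been seen.

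The balance of early and mid peaks changed at the same place. Early peaks made up 41.7% (35.8 to 47.9) of early and mid peaks together in the first Mb, with 106 early and 148 mid peaks. From 1 to 2 Mb the share was 52.8% (48.9 to 56.8) and from 2 to 3 Mb it was 54.8% (50.4 to 59.1). From 3 to 7 Mb it ranged between 50.2% and 58.4% per Mb. In the first Mb 51.9% (42.5 to 61.2) of early peaks overlapped a mid peak and 35.1% (27.9 to 43.1) of mid peaks met an early peak. From 1 to 2 Mb the same shares were 84.6% (80.3 to 88.1) and 82.4% (77.6 to 86.4), the highest of any Mb. The early share of the first Mb did not stand apart from those further in, which were 71.2% from 2 to 3 Mb, 24.4% from 3 to 4 Mb, 53.6% from 4 to 5 Mb, 57.1% from 5 to 6 Mb and 50.4% from 6 to 7 Mb. The mid share was 75.7%, 37.5%, 55.4%, 69.5% and 53.3% over the same 5 Mb, and its value in the first Mb was near that from 3 to 4 Mb. The first Mb held 9 late peaks, against 62 from 1 to 2 Mb.

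The fullest 100 kb bins of the 3 ORCA lists lay between 1 and 3 Mb or between 5.3 and 5.5 Mb, but none was among the 5 fullest of all 3 lists. The bin from 1.1 to 1.2 Mb, with 37 early, 35 mid and 4 late peaks, was among the 5 fullest of the early and mid lists. That from 1.5 to 1.6 Mb, with 37 early, 24 mid and 13 late peaks, led the late list and was among the fullest of the early list. The bin from 5.3 to 5.4 Mb, with 37 early, 28 mid and 11 late peaks, was among the 5 fullest of the early and late lists, and that from 1.9 to 2 Mb, with 36 early, 35 mid and 10 late peaks, of the mid and late lists. Early peaks were most numerous from 1.2 to 1.3 Mb, where 40 early, 29 mid and 3 late peaks lay. Mid peaks were most numerous from 5.4 to 5.5 Mb, with 32 early, 36 mid and 7 late peaks. MeDIP peaks were most numerous elsewhere, with 38 from 0.5 to 0.6 Mb, a bin that held 11 early, 17 mid and 1 late ORCA peak.

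Across the 140 bins of 50 kb, early and mid counts went together most closely, with Pearson's r of 0.87 and Spearman's rho of 0.87. Late counts followed early counts with r of 0.70 and mid counts with r of 0.64. MeDIP counts followed mid counts (r = 0.69) and early counts (r = 0.62) more closely than late counts (r = 0.34). These are descriptions across neighbouring bins that share their libraries and their sequence.

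Bins rich in MeDIP peaks mostly held few ORCA peaks outside the domain and the end of chromosome 8. Of the 70 bins of 100 kb in the domain, 50 held 10 or more MeDIP peaks, and these held a median of 45 ORCA peaks over the 3 lists, with a range of 6 to 81. On the rest of chromosome 7, 102 bins held 10 or more MeDIP peaks, with a median of 1 ORCA peak and a maximum of 32, and 50 of them held none. On the other chromosomes, leaving out chromosome 8 from 140 Mb, the 2119 bins of this kind also had a median of 1, with a maximum of 73. On chromosome 8 from 140 Mb, the 37 bins of this kind held a median of 40 ORCA peaks, with a range of 3 to 89. The 20 bins of the domain with fewer than 10 MeDIP peaks held a median of 11.5 ORCA peaks. The domain was chosen by its ORCA density, so the high counts in its bins follow from that choice. Chromosome 8 from 140 Mb was set apart as the place of the next fullest ORCA window.

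**Figure D2:**
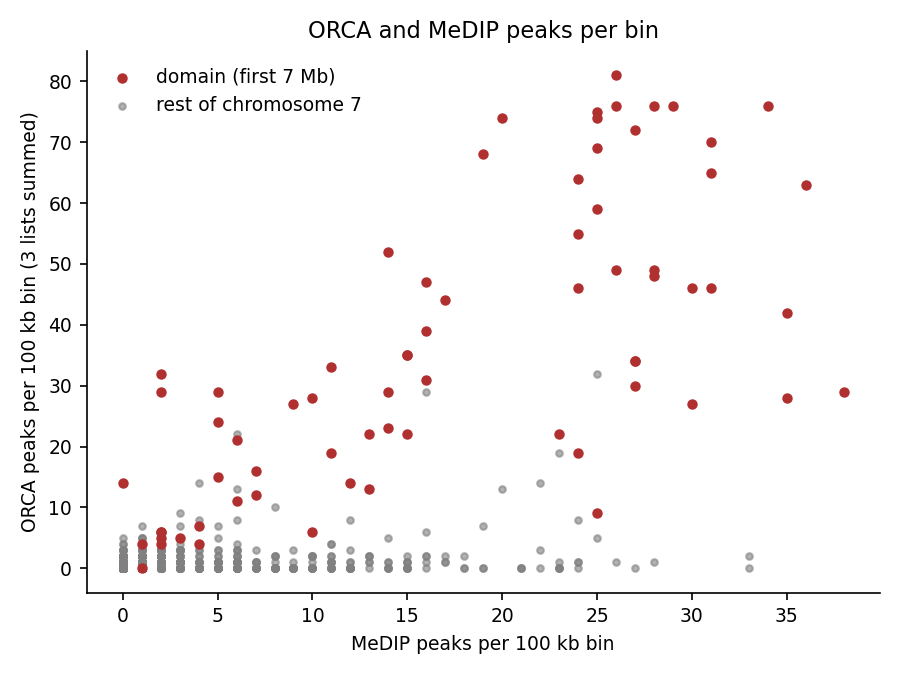
ORCA peaks per 100 kb bin, summed over early, mid and late G1, against MeDIP peaks in the same bin, for the domain (red) and the rest of chromosome 7 (grey). At 10 or more MeDIP peaks the domain's bins hold 6 to 81 ORCA peaks, while the bins on the rest of the chromosome hold 0 to 32 with a median of 1. The domain was chosen by its ORCA density, so its high counts follow from that choice.

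ORCA peaks of the domain were wide rather than extreme in score. Early peaks had a median width of 1165 bp, mid peaks of 1197.5 bp and late peaks of 1453 bp, against 500, 550.5 and 771 bp on the rest of chromosome 7. MeDIP peaks had a median width of 1068 bp in the domain and 789 bp on the rest. Neighbouring midpoints were a median of 2969 bp apart in the early list, 3199 bp in the mid list and 11991 bp in the late list. On the rest of the chromosome these distances were 104964, 79878 and 177533 bp. The highest early score in the domain was 1447.9, the highest mid score 2339.7 and the highest late score 1591.6. None of the domain's ORCA peaks reached 3100, the highest ORCA score in the series, which 2 mid peaks on the rest of chromosome 7 had.

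The score is the authors' value per peak and is compared only within a list. Early peaks of the domain had a median score of 78.2, against 62.6 on the rest of chromosome 7, and mid peaks 89.4 against 67.1. The late list went the other way, with a median of 66.5 in the domain and 86.3 on the rest. In the early list 71.4% of domain peaks and 47.7% of the other peaks on chromosome 7 scored at or above the median of the whole list, a difference of 23.7 percentage points (18.1 to 29.2). In the mid list the difference was 23.03 points (17.4 to 28.5). In the late list it was -13.9 points (-27.4 to 0.469), with 44.1% in the domain and 58.1% on the rest, an interval that includes 0.

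Most early and mid peaks of the domain met a peak of the other list, and most late peaks met both, while few early or mid peaks met a late one. Of the 1213 early peaks 787 overlapped a mid peak by at least 1 bp, 64.9% (62.2 to 67.5), against 24.9% (20.8 to 29.4) on the rest of chromosome 7 and 32.6% over the whole early list. An early peak lay at 731 of the 1122 mid peaks, 65.2% (62.3 to 67.9), against 23.9% (19.97 to 28.3) on the rest and 32.6% over the whole mid list. Late peaks mostly lay at a site of an earlier stage: 157 of 179 overlapped an early peak, 87.7% (82.1 to 91.7), against 50% (37.9 to 62.1) on the rest and 65.4% over the whole late list. A mid peak was overlapped by 150 late peaks, 83.8% (77.7 to 88.5), against 59.7% (47.3 to 71.0) on the rest and 70.3% over the whole list. A late peak lay at 184 early peaks, 15.2% (13.3 to 17.3), against 7.95% (5.66 to 11.1) on the rest and 8.91% over the whole early list. A late peak lay at 159 mid peaks, 14.2% (12.3 to 16.3), against 9.20% (6.75 to 12.4) on the rest. No share over the whole mid list is given for this pair, so it is not shown to stand apart from that list.

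The differences between domain and rest were 40.0 points (34.7 to 44.8) for early in mid, 41.3 (36.0 to 46.0) for mid in early, 37.7 (24.4 to 50.4) for late in early and 24.1 (11.3 to 37.4) for late in mid peaks. With the rest of chromosome 7 weighted to the widths of the domain's peaks, the difference for early in mid was 2.81 points (-8.37 to 15.3), although the rest held only 23 early peaks of 1000 bp or more to be weighted up. Weighted in the same way, the differences were 15.6 points (6.36 to 24.8) for mid in early, 34.2 (15.7 to 53.0) for late in early and 20.4 (3.49 to 40.3) for late in mid, all above 0. At equal list length, keeping the highest-scoring early and mid peaks, the difference for early in mid was 8.18 points (-7.36 to 24.1), and that for mid in early was 15.9 points (-0.0148 to 31.1). Without the widest 5% of each list, the difference for late in early was 14.1 points (-0.588 to 27.9) and that for late in mid was 0.0789 points (-14.4 to 14.3).

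Peaks this dense also overlapped often when placed elsewhere in the domain. When each early peak was placed at every position between the first and last peak of the domain, a mean of 37.4% of placements touched a mid peak, so the observed share was 1.74 times that. Placed at every position in its own 100 kb bin, the mean was 52.3% and the ratio 1.24. For late peaks the observed shares were 2.16 times the domain-wide placements against early peaks and 2.13 times against mid peaks, and 1.36 and 1.35 times those in the same 100 kb bin. These ratios count every position and involve no random draw and no test.

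**Figure D3:**
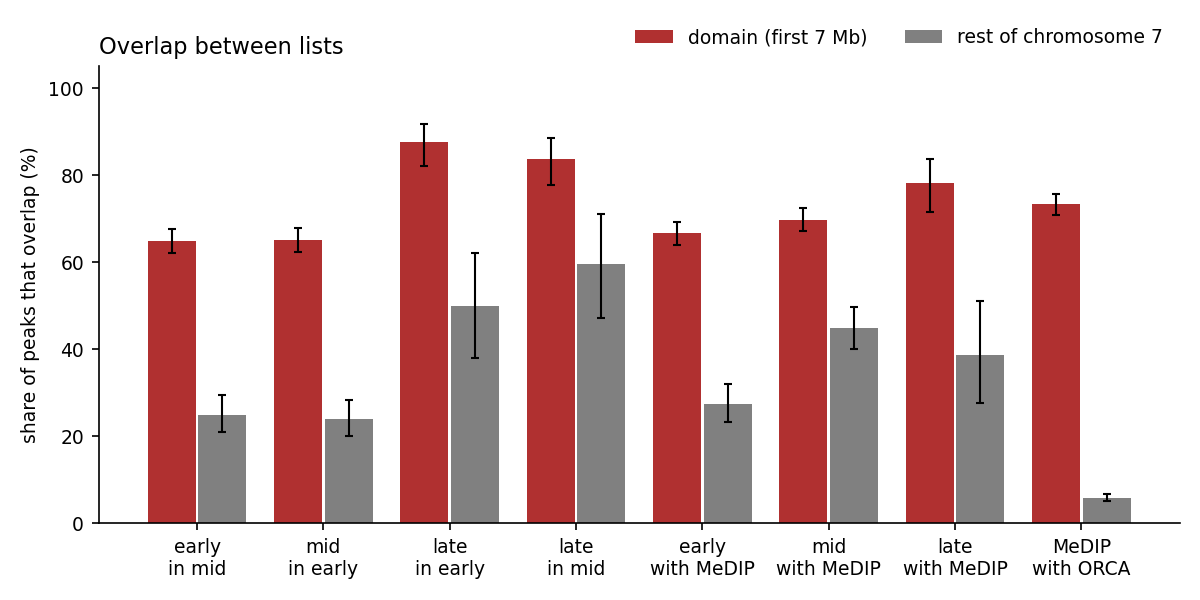
Share of peaks that overlap a peak of another list by at least 1 bp, in the domain (red) and on the rest of chromosome 7 (grey), with 95% Wilson intervals. Each of the 8 shares is higher in the domain, and MeDIP peaks with an ORCA peak differ most, at 73.3% in the domain and 5.88% on the rest.

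Merging overlapping ORCA peaks gave 1365 regions in the domain and 708 on the rest of chromosome 7. Regions in early and mid G1 numbered 448 in the domain (32.8%) and 68 on the rest (9.60%). All 3 stages met in 112 regions of the domain (8.21%, 6.86 to 9.78), against 22 on the rest (3.11%, 2.06 to 4.66). Regions of a single stage were the larger part, with 399 early-only, 369 mid-only and 10 late-only regions in the domain. Of these kinds 288, 294 and 20 were found on the rest in the same order. Regions of early and late G1 numbered 15 and those of mid and late G1 numbered 12 in the domain, against 5 and 11 on the rest. Seen from the early list, 12.9% (11.2 to 14.9) of domain peaks coincided with peaks of both later stages, against 6.67% (4.59 to 9.59) on the rest and 7.69% over the whole list. That difference of 6.28 points (2.86 to 9.16) turned to -22.8 (-36.4 to -11.1) with widths weighted and to -18.4 (-34.3 to -3.51) at equal list length.

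Regions of all 3 stages were wide, with a median of 3437 bp in the domain, and 97 of the 112 overlapped a MeDIP peak (86.6%, 79.1 to 91.7). The share was 76.6% (72.4 to 80.2) in regions of early and mid G1, 53.1% (48.0 to 58.1) in mid-only and 42.1% (37.4 to 47.0) in early-only regions. Mid-only regions were no wider than early-only ones, with medians of 925 and 1013 bp. On the rest of chromosome 7, 17.0% (13.1 to 21.8) of early-only and 39.8% (34.4 to 45.5) of mid-only regions overlapped a MeDIP peak.

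The region with the best mean rank over the 3 lists lay close to the chromosome end, at 302219 to 306050, with an early score of 1179.84, a mid score of 2339.71 and a late score of 1591.56. The next lay at 2568342 to 2573406, with scores of 1447.9, 1787.83 and 675.4 in the same order of stages. It lay between 2 wide regions, each less than 1 kb away. The one at 2556186 to 2567671 was 11486 bp wide and held 4 early, 2 mid and 3 late peaks. The one at 2573539 to 2585532 was 11994 bp wide and held 5 early, 4 mid and 0 late peaks. The third best, at 5642247 to 5650900, had scores of 721.12, 1136.53 and 320.24. All of the 10 best-ranked regions overlapped 2 or more MeDIP peaks. The others lay at 1502731 to 1524877, 4821542 to 4833669, 1573902 to 1591447, 2682189 to 2693075, 1525628 to 1540535 and 1309399 to 1312871.

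The widest ORCA regions each joined several peaks, some of them broad. The widest, from 1502731 to 1524877, spanned 22147 bp and joined 10 early, 7 mid and 6 late peaks. Next to it, separated by less than 1 kb, lay the region from 1525628 to 1540535, 14908 bp wide, with 7 early, 3 mid and 1 late peak. A single mid peak in that region, at 1530419 to 1540400, was 9982 bp wide. The region from 1573902 to 1591447 joined 5 early, 3 mid and 4 late peaks over 17546 bp. A second pair lay at 2682189 to 2693075 and 2693585 to 2705908, 10887 and 12324 bp wide. The remaining regions among the 10 widest were those at 4821542 to 4833669, 2573539 to 2585532, 2556186 to 2567671, 5345469 to 5356450 and 1772181 to 1783137, from 10957 to 12128 bp. Only the one at 2573539 to 2585532 lacked a late peak.

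Single-stage regions scored below the 3 best-ranked shared regions in the same list, which were ranked by these same scores. They did not all score below the 10 best-ranked: the shared region at 1309399 to 1312871 had a mid score of 283.76, below that of the best mid-only region. The best early-only regions lay at 6114761 to 6116613, with a score of 249.7, at 4876575 to 4878929, with 184.38, and at 6434473 to 6437675, with 179.46. The best mid-only regions were at 1148547 to 1150906, with 334.94, at 690997 to 692443, with 236.3, and at 159655 to 161046, with 222.35. The best late-only regions scored 79.6, 75 and 58.8 and lay at 5101959 to 5102962, 2089318 to 2090668 and 4338009 to 4339318. The late peaks of highest score included 2 in the third stretch that touched no MeDIP peak, at 6730258 to 6732067 with 689.78 and at 6713824 to 6717378 with 347.5. The first of these overlapped an early and a mid peak, the other a mid peak.

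ORCA peaks of the domain overlapped MeDIP peaks in most cases. In early G1, 808 of 1213 peaks had one, 66.6% (63.9 to 69.2), against 27.4% (23.2 to 32.1) on the rest of chromosome 7 and 35.3% over the whole early list. In mid G1 this held for 783 of 1122 peaks, 69.8% (67.0 to 72.4), against 44.8% (39.99 to 49.7) on the rest and 48.6% over the whole mid list. In late G1 it held for 140 of 179 peaks, 78.2% (71.6 to 83.6), against 38.7% (27.6 to 51.2) on the rest and 47.9% over the whole late list. Domain minus rest gave 39.2 points (33.8 to 44.1) for early, 25.01 (19.4 to 30.5) for mid and 39.5 (25.4 to 51.9) for late peaks. Weighted to the widths of the domain, the early difference was 6.47 points (-4.76 to 18.8), the mid difference 10.1 (0.731 to 20.1) and the late difference 37.4 (17.6 to 54.5). Among peaks of 500 to 750 bp, where both areas held over 100 early and mid peaks, the early share was 56.3% (48.5 to 63.7) in the domain and 29.8% (22.9 to 37.8) on the rest. The mid share in this class was 64.8% (57.1 to 71.8) and 43.2% (35.7 to 51.1).

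Seen from the MeDIP list, the domain stood further apart from the rest of chromosome 7. Of its 1220 MeDIP peaks 894 overlapped an ORCA peak of some stage, 73.3% (70.7 to 75.7), against 5.88% (5.11 to 6.75) of the 3181 on the rest of chromosome 7 and 8.04% over the whole MeDIP list. The difference was 67.4 points (64.7 to 69.9), and 63.1 points (60.1 to 65.8) with widths weighted. An early peak was found at 58.3% of the domain's MeDIP peaks, a mid peak at 59.3% and a late peak at 12.9%, against 4.6%, 6.03% and 0.901% over the whole MeDIP list. These shares follow the density of ORCA peaks, by which the domain was chosen. No overlap share, here or above, was taken for chromosome 8 from 140 Mb alone, so none is shown to be particular to the domain.

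The overlap with MeDIP peaks was above that of placements within the domain. Placed at every position between the first and last peak of the domain, early peaks touched a MeDIP peak in 40.9% of placements, mid peaks in 41.3% and late peaks in 42.8%. The observed shares were 1.63, 1.69 and 1.83 times these. Placed within dense bins the ratios were 1.44, 1.497 and 1.62, and placed within the same 100 kb bin they were 1.24, 1.27 and 1.28. On the rest of chromosome 7 the early ratio within the same 100 kb bin was 2.52, the mid ratio 3.39 and the late ratio 2.62, where such placements touched a MeDIP peak in 10.9% to 14.8% of cases. The ratio within 100 kb was thus lower in the domain at each stage, while the observed share was higher. In the domain, however, same-bin placements already met a MeDIP peak in 53.6% (early), 54.8% (mid) and 61.2% (late) of cases. Even if every ORCA peak had overlapped, the domain's ratio could not have reached that of the rest. The lower ratio therefore cannot tell the areas apart.

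Moving all ORCA peaks by the same distance showed how local the coincidence was. Early peaks touched a MeDIP peak in 66.6% of cases in place, in 66.8% and 65.5% after a shift of 0.5 kb to either side, and in 61.1% and 61.4% after 2 kb. After 10 kb the shares were 56.4% and 54.1%, and after 100 kb 51.9% and 50.1%. Mid peaks gave 58.1% and 57.7% after 10 kb and 52.1% and 50.9% after 100 kb, against 69.8% in place. Late peaks gave 64.2% and 65.4% after 10 kb and 55.3% and 58.1% after 100 kb, against 78.2% in place. Early peaks that touched no MeDIP peak were a median of 2183 bp from the nearest one in the domain and 19293 bp on the rest of the chromosome.

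**Figure D4:**
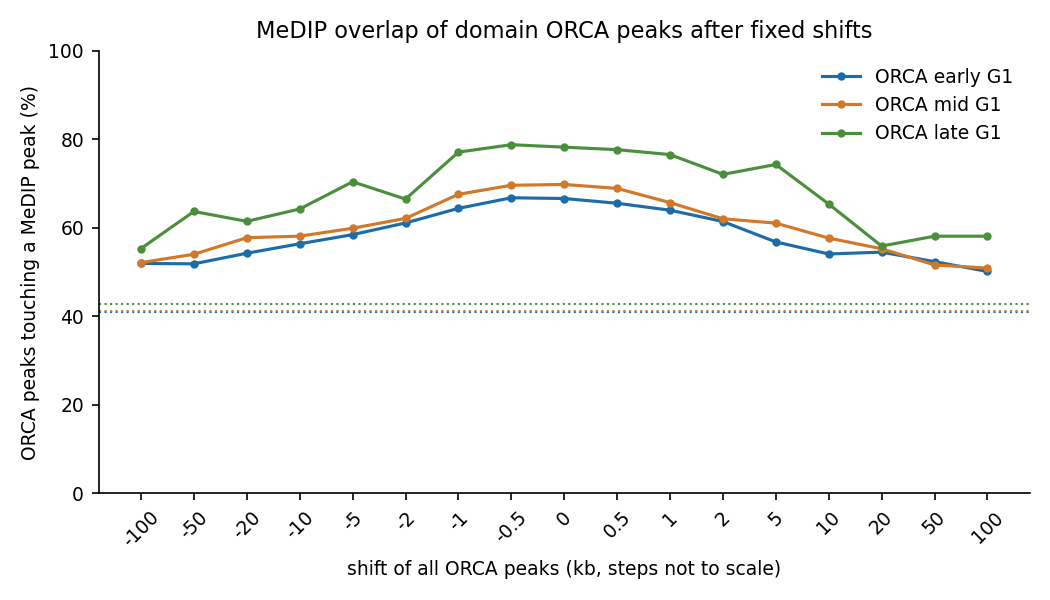
Share of the domain's early, mid and late ORCA peaks that touch a MeDIP peak after all peaks are moved by a fixed distance in kb (steps not to scale), with dotted lines for placement at every position of the domain. The shares are near their highest in place or at 0.5 kb, at 66.6% to 78.2% unshifted, and lie between 50.1% and 58.1% after 100 kb.

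At each stage the MeDIP overlap was lower in the third dense stretch than in the first, but counted per Mb it did not fall steadily. Of early peaks, 71.7% had a MeDIP peak from 0 to 1 Mb and 81.2% from 1 to 2 Mb. From 3 to 4 Mb 40% of them had one, and from 4 to 5 Mb 67.1%. Mid peaks gave 28.1% and 64.7% over these same 2 Mb. Late peaks gave 45.5% from 5 to 6 Mb and 70.6% from 6 to 7 Mb, the last from 17 peaks. In the first stretch 77.9% (74.8 to 80.8) of early, 82.0% (78.9 to 84.7) of mid and 89.1% (81.9 to 93.6) of late peaks had a MeDIP peak. In the second the shares were 72.5% (61.0 to 81.6), 58.2% (47.2 to 68.5) and 66.7% (35.4 to 87.9), the last from 9 peaks. In the third they were 48.2% (43.4 to 53.1), 52.0% (46.8 to 57.2) and 60.3% (47.5 to 71.9). The third minus the first stretch gave -29.7 points (-35.4 to -23.9) for early, -29.98 (-35.9 to -23.9) for mid and -28.7 (-42.4 to -15.1) for late peaks. Widths were not lower in the third stretch: early peaks had a median of 1115 bp in the first and 1277.5 bp in the third.

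MeDIP peaks themselves were less dense in the inner stretches, with 25.4 per 100 kb in the first, 15.8 in the second and 13.6 in the third. Placed at every position of the same stretch, early peaks touched a MeDIP peak in 61.4%, 34.4% and 29.7% of placements. The observed early share was therefore 1.27 times the placements in the first, 2.11 times in the second and 1.62 times in the third stretch. For mid peaks these ratios were 1.32, 1.72 and 1.74, and for late peaks 1.41, 1.84 and 1.88. Placements in the first stretch touched a MeDIP peak so often that its ratio could not have reached that of the second at any stage. The share of MeDIP peaks with an ORCA peak was not lower in the third stretch than in the first stretch as a whole. It was 73.6% (70.4 to 76.5) in the first, 71.6% (61.8 to 80.0) in the second and 78.7% (73.8 to 82.9) in the third stretch. The first value pools unlike parts, with 45.5% (39.6 to 51.5) from 0 to 1000 kb and 87.2% (84.1 to 89.8) from 1000 to 3150 kb. The third stretch was below the latter.

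**Figure D5:**
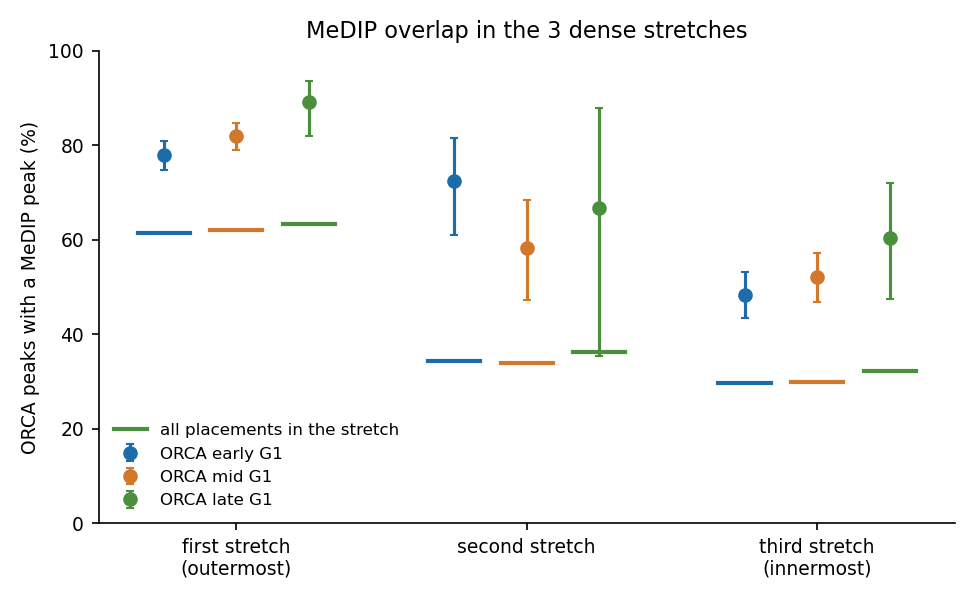
Share of ORCA peaks with a MeDIP peak in the 3 dense stretches of the domain, from the chromosome end inward, for early, mid and late G1 (points, with 95% Wilson intervals), and the share over all placements in the same stretch (bars). The early share is 77.9% in the first and 48.2% in the third stretch, and its placements 61.4% and 29.7%.

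Within the domain, higher-scoring early and mid peaks overlapped more, and they were also wider. Of 3 equal parts of the early peaks by score, the highest had the most overlap: 84.7% (80.8 to 87.8) had a MeDIP peak and 86.6% (83.0 to 89.6) a mid peak, at a median width of 1800 bp. In the lowest part these shares were 53.3% (48.5 to 58.1) and 47.9% (43.1 to 52.8), at 833 bp. Mid peaks gave 90.6% (87.3 to 93.2) with a MeDIP peak in the highest and 50.8% (45.8 to 55.8) in the lowest part. In late G1 the MeDIP share was 79.7% (67.7 to 88.0) in the highest, 83.3% (71.97 to 90.7) in the middle and 71.7% (59.2 to 81.5) in the lowest part, with overlapping intervals and no order by score. Late peaks with a mid peak did follow the score, at 96.6% (88.5 to 99.1), 86.7% (75.8 to 93.1) and 68.3% (55.8 to 78.7) in the same order. Their median widths were 2060, 1357.5 and 1190.5 bp. Of the 178 MeDIP peaks of the domain with a score of 3100 or more, 169 overlapped an ORCA peak (94.9%, 90.7 to 97.3).

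The MeDIP peaks of highest score in the domain showed the same, with 1 exception. Those at 1473245 to 1475470, 284490 to 286946 and 6680601 to 6685030 overlapped an early and a mid peak, and that at 580942 to 582646 an early peak. The peak at 954270 to 956075, with a score of 3149.96, overlapped no ORCA peak. None of these 5 overlapped a late peak.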

How the data were processed

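U2OS ORCA ChIP-seq at early, mid and late G1 and U2OS MeDIP-seq were analysed from the peak list deposited for each sample. The 4 inputs were not analysed here. Trimmomatic, Bowtie 0.12.7 and the builds GRCh37 and hg19 are named in the submitters' processing notes. Peaks carry MACS names per the file contents, while no source used here gives its version, settings or control library. The score in the deposited lists is the authors' value per peak. Starts, counted from 0 in the deposited lists, are printed from 1.

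Shares over whole lists and score medians used chromosomes 1 to 22 and X. A peak was assigned by its midpoint, and overlap meant 1 bp or more. Placements counted every position exactly. Dense bins were of 50 kb with 5 or more ORCA peaks. With 1 sample per group there was no test between samples. Named regions were the 5 highest-scoring peaks per list, the 10 best-ranked regions of all 3 stages, the 3 best of each single stage, the 10 widest, the 5 fullest 100 kb bins per list, empty runs, and the peaks beside the limit of 7 Mb. The members and lists were chosen with earlier results of these data known. The code was tested on simulated lists. Sequences were not used here. Python 3.11.15, numpy 2.4.6, pandas 2.3.3, scipy 1.17.1 and matplotlib 3.10.9 were used.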

Additional observations from a re-analysis of the deposited data

Results flagged for a closer look

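The median score of ORCA peaks moved in opposite directions in the stages. Between the domain and the rest of chromosome 7 it differed by 15.61 in early and 22.27 in mid G1, higher in the domain, and by -19.825 in late G1, lower in the domain. The 3 values come from 1 sample each and from scores that are comparable only within a list, and the difference between stages was not tested. The late list held 62 peaks on the rest of chromosome 7, and its caller label differs from that of the other lists.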

How the results depend on the processing

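No paired analysis was possible because each group holds 1 sample, and for the same reason none could be left out. Of 72 alternatives to the 9 differences between domain and rest, 69 kept a positive value and 62 an interval above 0. The cause of the changes was not tested. Shares below are in percent of domain peaks, in the order early in mid, mid in early, late in early, late in mid, early in both others, then early, mid and late with MeDIP, then MeDIP with ORCA.

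With an overlap of 50% of the shorter peak, 7 shares left their interval: 56.1 and 57.8, then 10.3 for early in both, and 56.7, 61.9, 70.4 and 64.7 for MeDIP. With peaks up to 1 kb apart they were 79.1, 79.4, 92.7, 94.4, 21.2, 77.7, 79.1, 84.4 and 84.6. Among peaks at or above the median score of their list, late in early was 79.7, late in mid 88.6, early in both 8.20, late with MeDIP 69.6 and MeDIP with ORCA 70.5. The difference for early in both others was then -2.02 points. At equal list length, the shares were 60.7, 62.3, 55.3, 58.1 and 24.1, then 86.7 and 92.7 for early and mid with MeDIP, and 41.6 for MeDIP with ORCA. The differences for early in mid, mid in early and early in both were 8.18, 15.9 and -18.4 points. Without the widest 5% of each list, which holds more of the domain's peaks, the shares were 43.6, 45.7, 57.4, 46.7, 6.24, 43.6, 45.7, 43.8 and 63.1. The differences for late in early, late in mid and early in both were then 14.1, 0.0789 and 2.06 points. Weighted to the domain's widths, those for early in mid, early in both and early with MeDIP were 2.81, -22.8 and 6.47 points, and the other 6 stayed above 0. Taking all peaks outside the domain as the rest, other than those on chromosome 8 from 140 Mb, changed no call. Leaving out the other end of chromosome 7 changed none either.

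The density ratio in covered bases was 156 for early, 129 for mid, 98.0 for late and 12.4 for MeDIP peaks, and at or above the median score 101 for early, 91.1 for mid and 12.0 for MeDIP peaks but 47.7 for late peaks, below their 62.7 in the full list. The dense stretch ended at 3.3 Mb in bins of 100 kb, at 7.0 Mb with 3 or more peaks per bin and at 3.05 Mb with 10 or more. Without the late list, an alternative added after seeing the data, it ended at 6.9 Mb. The ratios of MeDIP overlap to placements were 1.24, 1.27 and 1.28 in the same 100 kb bin and 1.44, 1.497 and 1.62 in dense bins. The late list, with 179 peaks in the domain, gave the widest intervals.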

Other observations

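Outside the domain, windows of 7 Mb with at least as many MeDIP peaks numbered 10, on chromosomes 9, 16, 17 and 19. Their ORCA peaks ranged from 8 to 280 in early, 6 to 329 in mid and 2 to 19 in late G1. Counts below those of the domain were set in advance, because the domain was chosen by its ORCA density. The window with the most MeDIP peaks, chromosome 19 from 0 to 7 Mb, held 1479 of them with 15 early, 16 mid and 7 late ORCA peaks. The highest ORCA counts among these windows were on chromosome 17 from 74 to 81 Mb, with 280 early, 329 mid and 19 late peaks beside 1435 MeDIP peaks.

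Some 100 kb bins of the domain held many ORCA peaks and almost no MeDIP peaks. These bins were picked after their values were seen. Between 5.8 and 5.9 Mb lay 16 early, 15 mid and 1 late ORCA peak but 2 MeDIP peaks. Between 6.3 and 6.4 Mb lay 17 early, 11 mid and 1 late peak, also with 2. From 4.4 to 4.5 Mb there were 2 early, 11 mid and 1 late peak and 0 MeDIP peaks.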
